A study of Mus musculus with 16 samples.

Results

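Oncofetal genes are active in the fetal liver, shut down in the adult organ and often active again in liver cancer, and imprinted genes are read from only 1 parental copy. The set examined here joined both kinds as markers of hepatoma cells and was chosen by symbol: Afp, H19, Igf2, Dlk1, Gpc3, Igf2bp1, Igf2bp3, Lin28b and Peg3. Of these 9 genes, 6 had a probe set paired with them alone and were analysed among 17097 genes with such a probe set; H19, Gpc3 and Lin28b were not analysed here. Each of the 6 was read from its brightest probe set, by mean over the 16 tumours, on the deposited log2 scale.

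The tumours grew from Hepa1-6, an established mouse hepatoma line, implanted under the skin of male C57BL/6 mice aged 5 weeks, and each was profiled on 1 expression array. The 4 tumours of the Placebo group came from mice injected with hamster IgG at 10 mg/kg. The 3 tumours of the AntiPD1 group came from mice given the hamster antibody J43 against the checkpoint receptor PD1, at the same dose, and the 5 of the Cabozantinib group from mice given that kinase inhibitor by mouth at 30 mg/kg a day. The 4 tumours of the Combination group had received both agents, and all mice were killed on day 14. The sources used here do not say whether the Cabozantinib group was also injected with IgG. The model is a single line growing outside the liver, and each bulk tumour holds host stroma, vessels and immune cells beside the hepatoma cells. Sample titles carry numbers, but the labels do not say what these mark, and Cabozantinib replicates 2 and 3 share a title number. Whether each array stands for a separate mouse is thus not stated, so p-values measure the spread between these tumours.

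Alpha-fetoprotein, encoded by Afp, is the main plasma protein of the fetal liver and a serum marker of hepatocellular carcinoma, and its gene lies beside the albumin gene Alb. IGF2 is a fetal growth factor that signals through the IGF1 receptor, and its gene shares an imprinted domain with H19. IGF2BP1 and IGF2BP3 are fetal RNA-binding proteins that bind and stabilise messenger RNAs, IGF2 among them. DLK1 is a membrane protein of hepatoblasts from the imprinted domain that also holds Meg3 and Rian. PEG3 is an imprinted zinc finger protein expressed, among other tissues, in muscle progenitors.

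Promoters of 5 of the 6 measured genes were matched by symbol in the RefSeq table for GRCm38.p6. Sequences of 3 genes are shown as background, and no result on signal rests on them. Afp is the brightest member and Igf2bp3 the member with the smallest p. Alb is the neighbour of Afp and one of the genes most like it across tumours. Each run is the 150 bases before the annotated start, read 5′ to 3′ along the gene. Afp lies at chr5:90490564-90490713 on the plus strand, Alb at chr5:90460720-90460869 on the plus strand, and Igf2bp3 at chr6:49214955-49215104 on the minus strand. Capitals mark GTTAAT in Afp and Alb, TATAAA in Afp, and every CG in Igf2bp3.
Afp: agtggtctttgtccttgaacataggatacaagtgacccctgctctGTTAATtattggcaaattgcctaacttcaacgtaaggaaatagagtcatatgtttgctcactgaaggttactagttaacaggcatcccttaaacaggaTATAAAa
Alb: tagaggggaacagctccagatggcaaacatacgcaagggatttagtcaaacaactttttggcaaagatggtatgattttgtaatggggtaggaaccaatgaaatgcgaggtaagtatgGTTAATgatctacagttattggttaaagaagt
Igf2bp3: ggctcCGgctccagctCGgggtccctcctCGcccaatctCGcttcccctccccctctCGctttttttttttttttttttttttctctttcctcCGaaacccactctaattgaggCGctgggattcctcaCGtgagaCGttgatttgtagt

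GTTAAT spells one arm of the site that the liver factor HNF1 is known to bind. Searched on both strands of the 300 bases from 250 before to 50 after the start, it began at position -105 in Afp and -32 in Alb, and 7.10% of 32851 promoters held it. TATAAA began at position -7 in Afp, and 13.6% of promoters held it. The Igf2bp3 window held 25 CG dinucleotides, against 3 in Afp, 3 in Alb, 9 in Dlk1, 13 in Peg3 and a median of 7 over all promoters. The 4 annotated Igf2 promoters held 2, 14, 24 and 7. A match describes letters in the window and does not show a factor bound there.

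The hepatoma label was checked against 21 measured hepatocyte genes of 23 listed, and 15 of the 21 had a mean above the highest array median of 5.13. Alb averaged 13.09 and Trf, which encodes transferrin, 12.39, whereas Fgg and Serpinc1, both plasma clotting genes, lay below the array medians at 4.66 and 4.56. For scale, array medians ran from 4.91 to 5.13, and 23 control probe sets with no mouse target had means from 3.54 to 5.62. Skeletal muscle genes were high in AntiPD1 replicate 2, Cabozantinib replicate 4 and Combination replicate 4, where the mean of the muscle genes stood 3.71, 3.38 and 4.71 log2 units above its average over all tumours.

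Against this background the members split into 3 tiers of signal. Afp lay near the top of the scale, with a mean of 12.62, and 99.5% of genes had a lower mean signal. Igf2bp1 and Igf2bp3 were clearly expressed at 8.71 and 8.68, above every array's median in 16 of 16 tumours. Igf2, Peg3 and Dlk1 were dim, at 5.29, 4.98 and 4.24. Igf2 exceeded the brightest control probe set in 4 tumours and Peg3 in 1, and Dlk1 lay below the array median in 16 of 16, so differences in these genes are close to background. Signals of different probe sets do not measure relative amounts of RNA, so the tiers say how far each gene stood above background and nothing more.

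**Figure D1:**
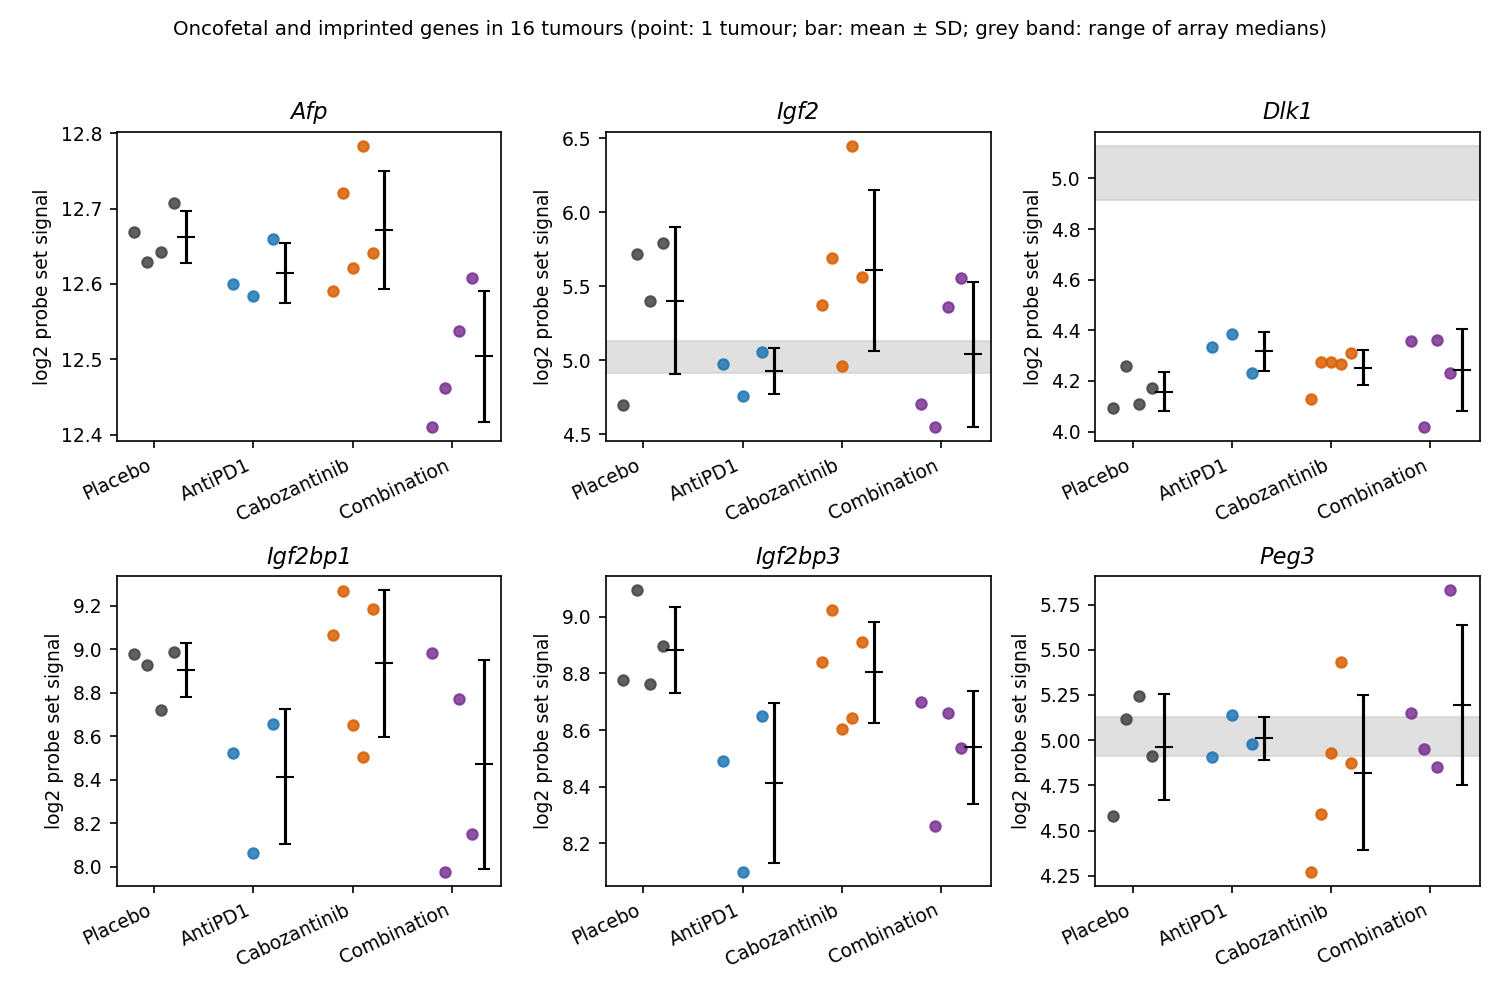
Log2 probe set signal of the 6 measured genes (vertical axes, each with its own range) in every tumour of the 4 groups (horizontal axes). Points are tumours, bars are group means ± SD, and the grey band spans the array medians where it falls in the panel; Afp stays within 12.41 and 12.78, and all AntiPD1 points of Igf2bp1 and Igf2bp3 lie below all Placebo points.

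Afp read between 12.41 and 12.78 in all tumours, near the top of the scale, where the largest value of any probe set was 13.51. Its differences may be compressed at such signals, which was not tested. The signal of Afp in the Placebo tumours was 12.67, 12.63, 12.64 and 12.71, with a mean of 12.66 ± 0.03 (SD, n = 4). The AntiPD1 tumours read 12.60, 12.58 and 12.66, with a mean of 12.61 ± 0.04 (SD, n = 3), and the Cabozantinib tumours read 12.59, 12.72, 12.62, 12.78 and 12.64, with a mean of 12.67 ± 0.08 (SD, n = 5). The Combination tumours read 12.41, 12.46, 12.54 and 12.61, with a mean of 12.50 ± 0.09 (SD, n = 4). All 4 Combination values lay below all 4 Placebo values, while the other groups overlapped Placebo. Afp was lower in the Combination group than in the Placebo group by a log2 difference of -0.16 ± 0.06 (SE), with a 95% interval from -0.29 to -0.03 and an adjusted p of 0.0987 in limma's test over all genes, so it did not pass the threshold of 0.05. In the same comparison 10.4% of genes passed, and 12.9% had groups that did not overlap with Combination lower. The Combination group was also lower than the Cabozantinib group, which it overlapped, by a log2 difference of -0.17 ± 0.06 (SE). The 95% interval ran from -0.29 to -0.05, and limma's adjusted p was 0.114, where 0.00585% of genes passed. In bulk tumours, fewer hepatoma cells and less Afp RNA per cell cannot be told apart.

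All 3 bright Afp probe sets, with means of 12.62, 12.48 and 12.17, were lower in Combination than in Placebo, by log2 differences between -0.30 and -0.11. With each array's median subtracted the difference was -0.22 and passed (adjusted p = 0.0466), and with limma's array weights it was -0.17 and passed (adjusted p = 0.0437). Over all alternatives its adjusted p ran from 0.0437 to 0.247. Alb, the neighbouring gene, fell in the Combination group by 0.22 ± 0.06 (SE; adjusted p = 0.0361), from 13.17 ± 0.03 to 12.95 ± 0.12 (SD). The hepatocyte marker genes moved beside it: 3 of 21 measured passed as lower (Alb, Trf and Ambp) and none as higher in limma's test, where 6.64% of all genes passed as lower, with a median difference of -0.29 against -0.02 over all genes. None of the 3 calls remained without Placebo replicate 2, 3 or 4 or without Combination replicate 1, 2 or 3, each left out alone. Hepatocyte scores, the mean over the list of each gene's distance from its average, ran from -0.52 to 0.56 in Placebo and from -0.83 to 0.59 in Combination. With that score as a covariate the Afp difference was -0.13 (adjusted p = 0.247); the part of the hepatocyte signal in it was not tested further.

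Igf2bp3 gave the smallest p of the members. Its signal in the Placebo tumours was 8.78, 9.09, 8.76 and 8.90, with a mean of 8.88 ± 0.15 (SD, n = 4). The AntiPD1 tumours read 8.49, 8.10 and 8.65, with a mean of 8.41 ± 0.28 (SD, n = 3), and the Cabozantinib tumours read 8.84, 9.02, 8.60, 8.64 and 8.91, with a mean of 8.80 ± 0.18 (SD, n = 5). The Combination tumours read 8.70, 8.26, 8.66 and 8.53, with a mean of 8.54 ± 0.20 (SD, n = 4). Every tumour of the 2 groups given the antibody lay below every Placebo tumour, as they did for 12.3% of all genes in AntiPD1 and 12.9% in Combination, while the Cabozantinib tumours spanned both ranges. The lowest readings were those of AntiPD1 replicate 2 and Combination replicate 2.

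Against Placebo, Igf2bp3 was lower in the AntiPD1 group by a log2 difference of -0.47 ± 0.15 (SE), a 1.39-fold difference, with a 95% interval from -0.78 to -0.16. limma's adjusted p was 0.152, in a comparison where 0.0292% of genes passed. The Combination difference was -0.35 ± 0.13 (SE), with an interval from -0.63 to -0.06 and an adjusted p of 0.106. Cabozantinib alone differed from Placebo by -0.08 ± 0.13 (SE), with an interval from -0.35 to 0.19 (adjusted p = 0.848), in a comparison where 0.257% of genes passed. The 2 antibody groups share the Placebo tumours as their control and are not independent of each other.

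Cabozantinib tumours exceeded AntiPD1 tumours in Igf2bp3 by 0.39 ± 0.14 (SE), with an interval from 0.09 to 0.69 (adjusted p = 0.113 in limma), where 5.43% of genes passed. The Combination group differed from Cabozantinib by -0.27 ± 0.13 (SE; adjusted p = 0.234), where 0.00585% of genes passed, and from AntiPD1 by 0.12 ± 0.15 (SE; adjusted p = 0.938), where 0.234% passed. The test for any difference among the 4 groups gave an adjusted p of 0.0890, where 6.77% of genes passed. With array weights Igf2bp3 passed against Placebo in the AntiPD1 group (-0.42, adjusted p = 0.0350), between Cabozantinib and AntiPD1 (0.40, adjusted p = 0.0317) and in the 4-group test (adjusted p = 0.0314), and over all alternatives the first of these adjusted p ran from 0.0350 to 0.542. Without the 3 tumours richest in muscle genes, an alternative chosen after seeing the data, the AntiPD1 difference was -0.31 (adjusted p = 0.496) and rested on 2 AntiPD1 tumours.

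Igf2bp1, the paralogue of Igf2bp3, showed a similar order of groups with a wider spread. Its signal in the Placebo tumours was 8.98, 8.93, 8.72 and 8.99, with a mean of 8.90 ± 0.12 (SD, n = 4). The AntiPD1 tumours read 8.52, 8.06 and 8.66, with a mean of 8.41 ± 0.31 (SD, n = 3), and the Cabozantinib tumours read 9.07, 9.27, 8.65, 8.51 and 9.18, with a mean of 8.93 ± 0.34 (SD, n = 5). The Combination tumours read 8.98, 7.98, 8.77 and 8.15, with a mean of 8.47 ± 0.48 (SD, n = 4). The AntiPD1 tumours lay below every Placebo tumour, as for 12.3% of all genes, and the Combination tumours fell into a pair near Placebo and a pair far below it. The log2 difference from Placebo was -0.49 ± 0.24 (SE) in the AntiPD1 group, with an interval that includes 0 (adjusted p = 0.281), and -0.43 ± 0.22 (SE) in the Combination group, with an interval from -0.91 to 0.04 (adjusted p = 0.214), both in limma.

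Cabozantinib exceeded AntiPD1 in Igf2bp1 by 0.52 ± 0.23 (SE; interval 0.03 to 1.01, limma adjusted p = 0.198). Adding the antibody to cabozantinib gave a difference of -0.46 ± 0.21 (SE; interval -0.92 to -0.01, adjusted p = 0.210). Cabozantinib against Placebo stood at 0.03 ± 0.21 (SE), and its interval from -0.42 to 0.48 spans both directions.

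The other probe sets bore on both genes. All 4 Igf2bp3 probe sets were lower in AntiPD1 than in Placebo, by log2 differences between -0.47 and -0.42, and all 4 were lower in Combination, by between -0.54 and -0.35. The 4 Igf2bp1 probe sets were lower than in Placebo by between -0.49 and -0.11 in AntiPD1 and by between -0.43 and -0.07 in Combination, and lower in Combination than in Cabozantinib by between -0.47 and -0.35. With the mean of all probe sets the Igf2bp1 differences from Placebo shrank to -0.27 in AntiPD1 and -0.23 in Combination. Between Combination and AntiPD1 the Igf2bp3 probe sets disagreed in direction, with values from -0.11 to 0.12. On 2 further probe sets that Igf2bp3 shares with D030074P21Rik, the AntiPD1 differences were -0.35 and -0.18. Probe sets of a gene read the same RNA samples and are not replicates.

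**Figure D2:**
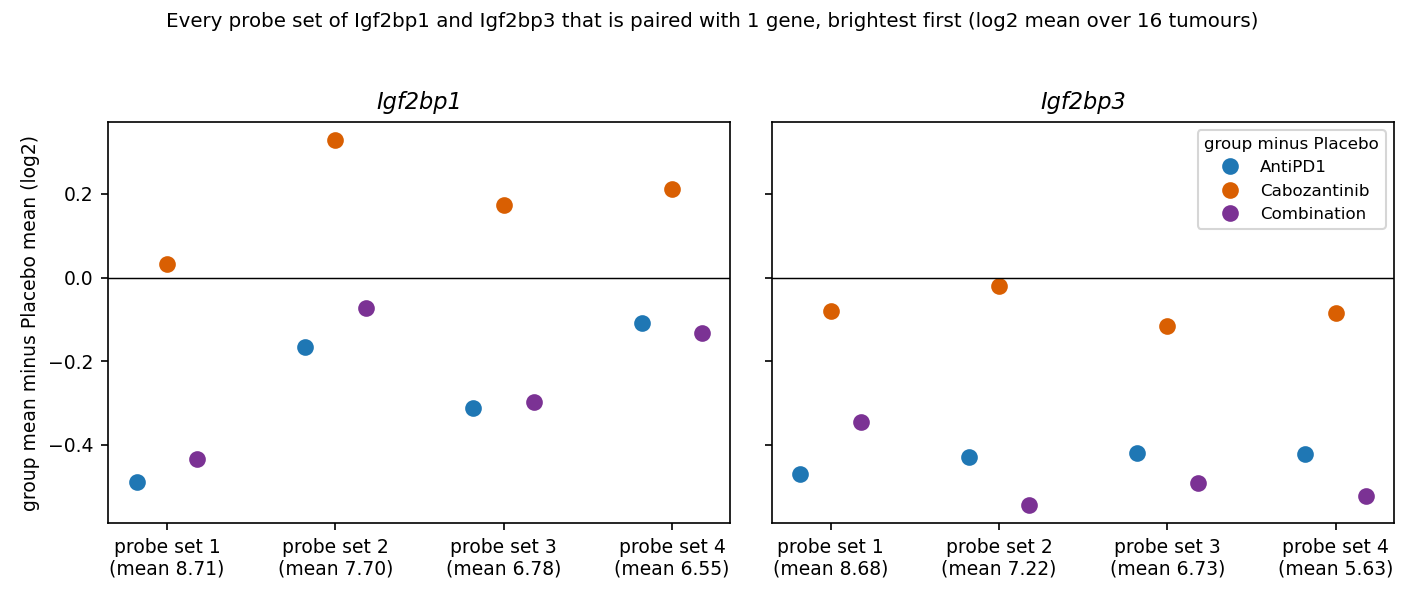
Difference of each treated group's mean from the Placebo mean (vertical axis, log2) for the 4 probe sets of Igf2bp1 and of Igf2bp3, brightest first (horizontal axis), with 1 point per group. For Igf2bp3 the AntiPD1 and Combination points lie between -0.54 and -0.35 on every probe set, while the Cabozantinib points lie between -0.12 and -0.02.

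Scores of stroma and immune genes were compared with both RNA-binding protein genes. Fibroblast and matrix scores, over 14 measured genes of 15 listed of which 12 averaged above the array medians, ran from -1.07 to -0.15 in Placebo, from 0.18 to 0.92 in AntiPD1, from -1.37 to 0.88 in Cabozantinib and from 0.34 to 0.76 in Combination. Leukocyte scores, over 14 genes of 14, ran from -0.66 to 0.16, from 0.39 to 0.58, from -1.49 to 0.35 and from 0.19 to 0.74 in the same order. In AntiPD1 against Placebo 0 of 14 genes of each list passed, and in Combination against Placebo 2 of 14 of each passed as higher, where 3.71% of all genes did. Without Placebo replicate 2 or 3 or Combination replicate 1 or 2, each left out alone, 0 of either list passed. Median differences in the 2 comparisons were 1.08 and 0.98 for the fibroblast and matrix list and 0.87 and 0.86 for the leukocyte list, against -0.03 and -0.02 over all genes. The part of host cells in the differences of Igf2bp1 and Igf2bp3 was not tested.

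Across the 16 tumours, Igf2bp3 correlated with the fibroblast and matrix score at r = -0.86 and rho = -0.93, with an adjusted permutation p of 0.00096 for r over 48 pairs of a member and a marker list. Without the 2 outermost tumours r was -0.79, and on deviations from the group means it was -0.74. With the leukocyte score r was -0.78 (rho = -0.82, adjusted permutation p = 0.0072), -0.82 without the 2 outermost and -0.62 within groups. Igf2bp1 gave r = -0.79 with the fibroblast and matrix score (rho = -0.82, adjusted permutation p = 0.0072; -0.76 without the 2 outermost; -0.65 within groups). The r of Igf2bp1 with the leukocyte score was -0.69 (rho = -0.71, adjusted permutation p = 0.0261; -0.59 without the 2 outermost; -0.46 within groups). Tumours with brighter stroma and leukocyte genes thus had dimmer Igf2bp1 and Igf2bp3, and r kept its sign on deviations from the group means. Igf2bp1 gave r = -0.65 with muscle progenitor genes (rho = -0.80, adjusted permutation p = 0.0499), of which 1 of 10 averaged above the array medians. Igf2bp3 gave r = -0.47 with them, which did not pass (adjusted permutation p = 0.190), and rho = -0.81, which did (adjusted permutation p = 0.0018). These permutations ran over all 16 tumours regardless of group, so their p also take in differences between groups. For pairs of a member and a marker list no p was computed within groups. The share of all genes reaching such r with a score was not computed. All values of a tumour share its array.

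The 2 RNA-binding protein genes also varied together from tumour to tumour. Their signals correlated at r = 0.89 and rho = 0.90 over 16 tumours, with a permutation p of 1e-05 for r, the smallest that the resampling can give, and an adjusted p of 0.00015 over 15 pairs of members. Without the 2 outermost tumours r was 0.80, and on deviations from the group means it was 0.84 (adjusted permutation p = 0.00255). Genes outside the set followed each of the 2 more closely, such as Mtus2 with Igf2bp3 (r = 0.95) and Rybp with Igf2bp1 (r = 0.94). The share of all genes reaching such r was not computed, so the relation is not shown to be particular to this pair. The second of the 15 pairs to pass was Afp with Igf2, at r = 0.71 (adjusted permutation p = 0.0159), 0.60 without the 2 outermost tumours and 0.73 within groups (adjusted permutation p = 0.0592). By ranks the latter pair gave rho = 0.63 and did not pass (adjusted permutation p = 0.0800).

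**Figure D3:**
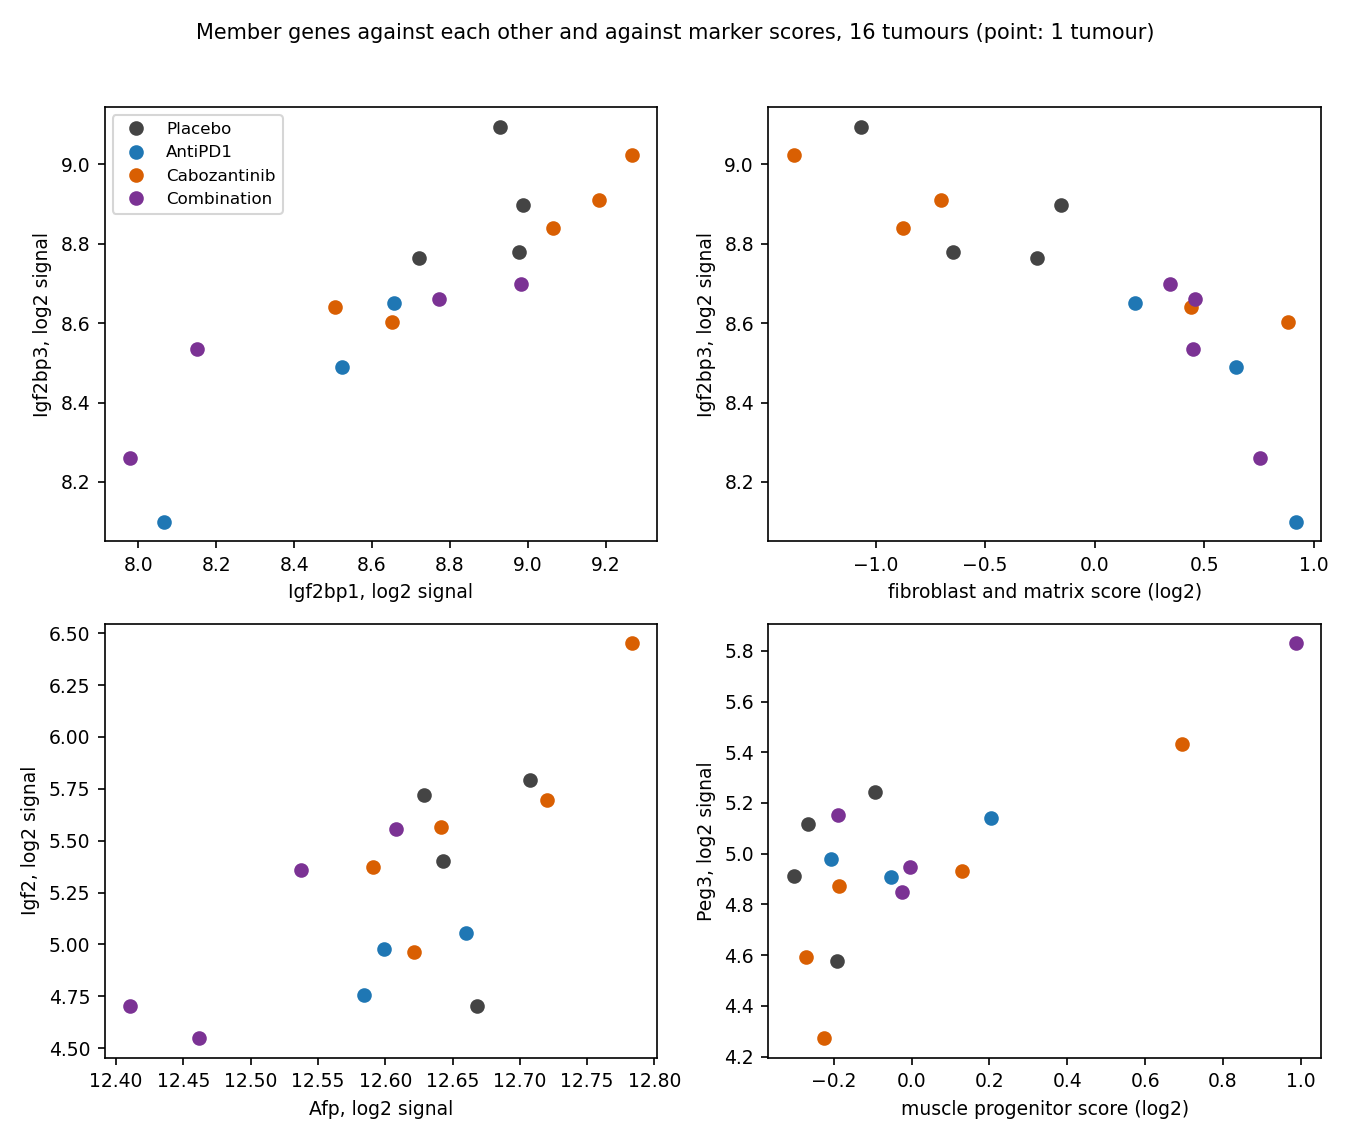
Each panel sets 1 member's log2 signal or a marker score (horizontal axis, log2) against another member's log2 signal (vertical axis), with 1 point per tumour coloured by group. Igf2bp1 and Igf2bp3 lie along a rising line (r = 0.89), Igf2bp3 falls with the fibroblast and matrix score (r = -0.86), Afp and Igf2 scatter around a rising line (r = 0.71), and the Peg3 relation to muscle progenitor genes is carried by 2 tumours at the right.

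Genes with the pattern most like each member were taken by Pearson r over the 16 tumours among 10143 genes with a mean above the array medians. For Igf2bp3 these were Mtus2, Sinhcaf and Adnp, with r of 0.95, 0.94 and 0.94, and on deviations from group means Larp4 (0.97), Npm1 and Zhx1. These relations are descriptions over 16 arrays. For Igf2bp1 they were Rybp, Jag1 and Cd2ap, with r of 0.94, 0.94 and 0.93, and within groups Jag1 (0.93), Zgrf1 and Fosl1. For Afp they were Cnpy4 (0.91), Ahdc1 (0.90) and Alb (0.89), and Alb was again among the 3 most like it within groups, at 0.84, with Gtf3c1 and Nfatc2. For Igf2 they were Tead1 (0.88), Rapgef6 and Zfp568, and within groups Abcb6 (0.90), Fam20a and Marchf6.

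Igf2 was dim and varied widely between tumours. It read 4.70, 5.72, 5.40 and 5.79 in Placebo, with a mean of 5.40 ± 0.50 (SD, n = 4), and 4.98, 4.76 and 5.05 in AntiPD1, with a mean of 4.93 ± 0.15 (SD, n = 3). The Cabozantinib tumours read 5.37, 5.69, 4.96, 6.45 and 5.56, with a mean of 5.61 ± 0.55 (SD, n = 5), and the Combination tumours 4.70, 4.55, 5.36 and 5.55, with a mean of 5.04 ± 0.49 (SD, n = 4). The groups overlapped, and the highest reading, that of Cabozantinib replicate 4, came from one of the 3 tumours richest in muscle genes.

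The widest difference of Igf2 was Cabozantinib over AntiPD1, at 0.68 ± 0.32 (SE), with an interval from -0.00097 to 1.36 (adjusted p = 0.226 in limma), and without the 3 muscle-rich tumours it was 0.38 (adjusted p = 0.559). Combination against Cabozantinib gave -0.57 ± 0.29 (SE; adjusted p = 0.266), AntiPD1 against Placebo -0.47 ± 0.33 (SE; adjusted p = 0.448) and Combination against Placebo -0.36 ± 0.31 (SE; adjusted p = 0.475). With the hepatocyte score as a covariate the difference between Combination and Cabozantinib was -0.22 (adjusted p = 0.805). Igf2 correlated with that score at r = 0.62, which did not pass (adjusted permutation p = 0.0661), and at rho = 0.72, which did (adjusted permutation p = 0.0198). With the leukocyte score it gave r = -0.55 (adjusted permutation p = 0.123) and rho = -0.69 (adjusted permutation p = 0.0230). The second Igf2 probe set lay at 3.99, within the control range.

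Dlk1 lay below the array median and within the range of the control probe sets in every tumour. Its group means were 4.16 ± 0.08 in Placebo (SD, n = 4), 4.32 ± 0.08 in AntiPD1 (n = 3), 4.25 ± 0.07 in Cabozantinib (n = 5) and 4.24 ± 0.16 in Combination (n = 4), and the whole range over 16 tumours was 4.02 to 4.39. The largest difference was AntiPD1 over Placebo, at 0.16 ± 0.08 (SE; interval -0.02 to 0.34, limma adjusted p = 0.309).

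Meg3 and Rian, from the same imprinted domain as Dlk1, averaged above the array medians. Meg3, a maternally expressed long noncoding RNA, rose in Combination against Placebo by 1.67 ± 0.48 (SE; limma adjusted p = 0.0417), from 6.45 ± 0.74 to 8.12 ± 0.50 (SD). Rian, a second maternally expressed RNA of the domain, was lower in Cabozantinib than in AntiPD1 by a log2 difference of -2.11 ± 0.50 (SE; limma adjusted p = 0.0293), at 6.57 ± 0.95 against 8.67 ± 0.43 (SD). AntiPD1 against Placebo gave 2.45 ± 0.52 for Meg3 and 2.38 ± 0.52 for Rian (SE), with an adjusted p of 0.111 for each.

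Peg3 overlapped between all groups. Its group means were 4.96 ± 0.29 in Placebo (SD, n = 4), 5.01 ± 0.12 in AntiPD1 (n = 3), 4.82 ± 0.43 in Cabozantinib (n = 5) and 5.20 ± 0.44 in Combination (n = 4), and its largest difference was Combination over Cabozantinib, at 0.38 ± 0.23 (SE; interval -0.11 to 0.86, limma adjusted p = 0.348). The highest readings, 5.83 and 5.43, came from Combination replicate 4 and Cabozantinib replicate 4, both rich in muscle genes. Over 16 tumours Peg3 correlated with muscle progenitor genes at r = 0.76 (adjusted permutation p = 0.00852), but rho was 0.52 (adjusted permutation p = 0.172) and r without the 2 outermost tumours was 0.33, so the relation rests on those tumours. Its r with skeletal muscle genes was 0.69 (adjusted permutation p = 0.0214), with rho = 0.36 and 0.51 without the 2 outermost. On deviations from the group means, with all 16 tumours kept, r was 0.82 with muscle progenitor genes and 0.75 with skeletal muscle genes.

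**Figure D4:**
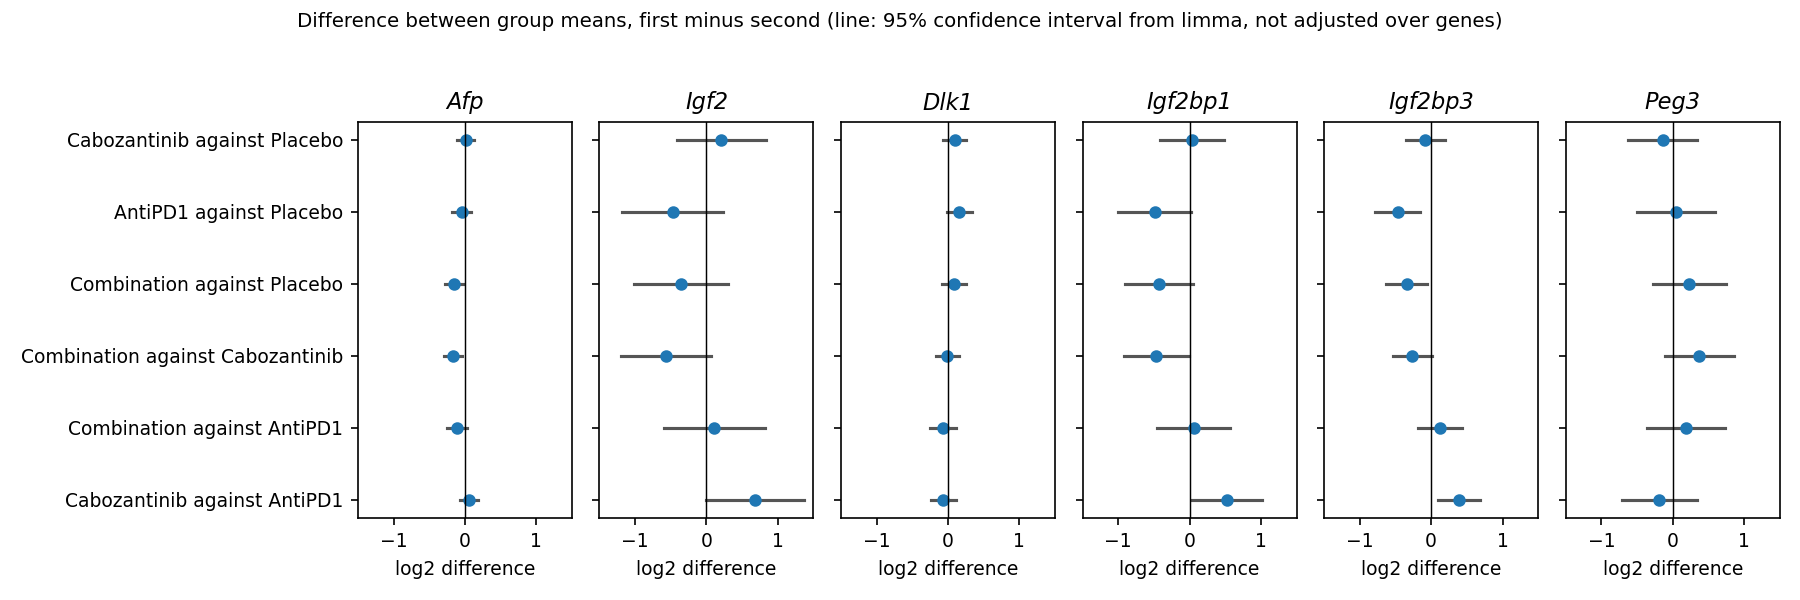
Differences between group means (horizontal axes, log2, first group minus second) for the 6 measured genes (panels) in 6 pairwise comparisons (rows), with 95% confidence intervals from limma that are not adjusted for the number of genes. Intervals of Afp, whose signal lay near the top of the scale where differences may be compressed, are the narrowest. Those that leave out 0 are Igf2bp3 in AntiPD1 against Placebo, Afp and Igf2bp3 in Combination against Placebo, Afp and Igf2bp1 in Combination against Cabozantinib, and Igf2bp1 and Igf2bp3 in Cabozantinib against AntiPD1. After adjustment over all genes, 0 of the 6 genes passed the threshold in any row.

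Over all comparisons, 0 of the 6 members passed limma's adjusted threshold: 0 in each of the 6 pairwise comparisons, 0 in the interaction of the drugs and 0 in the 4-group test. An unadjusted p below 0.05 was found for 0 members in Cabozantinib against Placebo, 1 in AntiPD1 against Placebo, 2 in Combination against Placebo, 2 in Combination against Cabozantinib, 0 in Combination against AntiPD1, 2 in Cabozantinib against AntiPD1, 0 in the interaction and 2 in the 4-group test. Over all 17097 genes, in the same order, 2218, 3278, 4988, 3853, 1233, 3803, 440 and 5133 had an unadjusted p below 0.05 in limma. The interaction, which asks whether both agents together differ from the sum of each alone, passed for 0% of all genes and at an unadjusted p below 0.05 for 440 of 17097. Its Afp estimate was -0.12 ± 0.09 and its Igf2bp3 estimate 0.20 ± 0.19 (SE). In data simulated for Combination against Placebo over 17097 genes, 55.2% of 67 genes changed by 0.5 log2 units were recovered and 85.1% of 67 changed by 1. The simulation drew independent noise for each gene and changed far fewer genes than the 1771 that passed in the data. Its rates average over genes of differing spread and do not say how often a change in a given member would be found.

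Partner genes of the members were examined as lists. Among all genes, 3.71% passed as higher and 6.64% as lower in Combination against Placebo, and 2.67% and 2.75% in Cabozantinib against AntiPD1. Among 27 measured imprinted genes of 33 listed, 3 rose and 1 fell in Combination against Placebo, 3 were higher and 2 lower in Cabozantinib than in AntiPD1, and none passed in the other 4 pairwise comparisons. The risers were Meg3, Sgce (1.23 ± 0.36, SE; adjusted p = 0.0440), which encodes a sarcoglycan, and Cdkn1c (1.70 ± 0.41; adjusted p = 0.0266), a cell cycle inhibitor that averaged 3.93 in Placebo, within the control range, so the size of its difference is not well measured. Kcnq1ot1, the noncoding RNA that silences the domain holding Cdkn1c, fell by 0.36 ± 0.11 (adjusted p = 0.0459) and was higher in Cabozantinib than in AntiPD1 by 0.56 ± 0.11 (adjusted p = 0.0134), with all p from limma. Blcap (0.40) and Airn (0.43) were the other 2 genes higher in Cabozantinib than in AntiPD1. The median difference of the list in Combination against Placebo was 0.05 against -0.02 over all genes. The fibroblast and leukocyte scores were higher in Combination than in Placebo in every tumour, and their part in these differences was not tested; Dcn stands in both the imprinted and the fibroblast list.

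In the IGF axis, 15 genes of 18 listed were measured, and 3 rose and 1 fell in Combination against Placebo. The ligand Igf1 rose by 2.38 ± 0.53 (SE; adjusted p = 0.0204), to a Combination mean of 10.38 ± 0.49 (SD). Igfbp6, a binding protein with preference for IGF2, rose by 2.17 ± 0.58 (adjusted p = 0.0352), and the receptor gene Igf1r by 1.13 ± 0.33 (adjusted p = 0.0433), from a Placebo mean of 4.88, within the range of the control probe sets, so the size of its difference is not well measured. Irs1, the adaptor below the receptor, fell by 0.63 ± 0.13 (adjusted p = 0.0178). Igf1 was also lower in Cabozantinib than in AntiPD1, by a log2 difference of -1.98 ± 0.54 (adjusted p = 0.0482), and no gene of the list passed in the other 4 pairwise comparisons. The list median in Combination against Placebo was -0.03. As for the imprinted genes, the part of fibroblasts and leukocytes in these differences was not tested.

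Among 17 measured regulators of Afp, H19 and Gpc3, of 20 listed, 2 fell in Combination against Placebo and none rose: Foxa1 by 1.09 ± 0.22 (SE; adjusted p = 0.0158) and Foxa3 by 0.78 ± 0.19 (adjusted p = 0.0273), both liver pioneer factors. The list median there was -0.18 against -0.02 over all genes, and no member of it passed in another pairwise comparison. Zhx2 and Zbtb20, repressors of Afp after birth, differed between Combination and Placebo by -0.30 ± 0.14 (adjusted p = 0.150) and -0.26 ± 0.09 (adjusted p = 0.0693). Among 15 measured LIN28, let-7 and IGF2BP partners of 22 listed names, 1 passed in a pairwise comparison: Tut4, which adds uridines to let-7 precursors, was higher in Cabozantinib than in AntiPD1 by 0.50 ± 0.10 (adjusted p = 0.0141). Lin28a, the paralogue of Lin28b, averaged 3.89, below the array medians.

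Among 20 measured hepatoblast and progenitor genes of 23 listed names, Epcam (a fall of 0.79 ± 0.17; adjusted p = 0.0202), Igdcc4 and Golm1 passed as lower in Combination against Placebo and none as higher. Sox9, Krt8 and Cd24a were higher in Cabozantinib than in AntiPD1, Sox9 by 1.14 ± 0.24 (adjusted p = 0.0188). Ptn, which encodes pleiotrophin, stood at 6.65 ± 0.05 in AntiPD1 (SD, n = 3) and at 4.37 ± 0.40 in Placebo, 4.36 ± 0.68 in Cabozantinib and 4.49 ± 0.44 in Combination. Its differences from AntiPD1 passed in all 3 comparisons, with adjusted p of 0.0469, 0.00281 and 0.0157 in limma, in the order of those groups. The Ptn means of those groups lay within the range of the control probe sets, so the size of each difference is not well measured.

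Most list calls depended on single tumours. Of 26 calls in the 5 lists, 1, that of Ptn between Cabozantinib and AntiPD1, passed whichever tumour was left out, and no call changed direction. Of the 13 calls in Combination against Placebo, 0 remained without Combination replicate 2, 0 without Placebo replicate 2, 2 without Placebo replicate 4, 3 without Placebo replicate 3 and 6 without Combination replicate 1. Of the 11 between Cabozantinib and AntiPD1, 1 remained without AntiPD1 replicate 2, 4 without AntiPD1 replicate 1 or 3 or Cabozantinib replicate 2 or 5, and 6 without Cabozantinib replicate 1. The Ptn call in AntiPD1 against Placebo was lost without any 1 of the AntiPD1 or Placebo tumours. It was also lost without Cabozantinib replicate 1, 4 or 5 or Combination replicate 1, 3 or 4, each left out alone. Without the 3 tumours richest in muscle genes 9 of the 13 and 2 of the 11 remained. With the hepatocyte score as a covariate 2 of the 13 in Combination against Placebo remained. With only the 2 groups compared in the fit, 2 of the 11 between Cabozantinib and AntiPD1 remained.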

How the data were processed

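Total RNA (50 ng) from each of 16 fresh-frozen tumours was hybridised to an Affymetrix mouse array, per the labels. The authors deposited log2 probe set signals made with RMA and affy 1.62.0, per the submitters' processing notes. Settings and scan dates: not given in the sources used here. Of 45141 probe sets, 104 were controls and 28898 were paired with 1 gene. Keeping the brightest for each gene left 17097 genes. Arrays carry no read depth, and their number limits precision.

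limma 3.58.1 in R 4.3.3 fitted 4 group means without covariates (12 residual and 2.47 prior degrees of freedom). The threshold was an adjusted p of 0.05 (Benjamini-Hochberg, all 17097 genes). Correlations used 100000 permutations in numpy 2.4.6, over all tumours regardless of group. For deviations from group means, tested for pairs of members only, the permutations ran within groups. A list score is the mean over its genes of the log2 value minus that gene's mean over tumours. The fit was tested on simulated data. Members and lists were chosen with earlier results of these data known. From each list up to 4 genes past the threshold were named per comparison, by smallest p, and for each member above the array medians the 3 genes most like it. Other named genes were chosen after their values were seen. Alternatives changed the scaling, dim genes, probe sets, samples fitted, array weights, a number in the sample titles as a block, and covariates, and left out each array. Other background corrections and slide or scan blocks were not run, since only the value table was used.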

Additional observations from a re-analysis of the deposited data

Results flagged for a closer look

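Of 18 pairs of a member and a group of 4 or 5 tumours examined, 1 held a tumour far from the rest: Dlk1 in Cabozantinib replicate 1, at 4.13, was below the other 4 tumours by a gap of 0.774 of the group's whole range. About 1 in 20 such groups is picked out by chance, and Dlk1 lay below the array median in every tumour.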

How the results depend on the processing

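The number of arrays limits every result, and 3 of the 6 members lie near background. Of 1030 member values under alternatives, 35 changed sign and 5 passed the threshold that none passed before; the cause was not tested. The choices to leave out the 3 tumours richest in muscle genes, and to rerun the list calls without single tumours, were made after seeing the data. No paired analysis was possible because replicate numbers only name the tumours in accession order; the number in the titles, shared by 2 tumours in 4 cases, gave a consensus correlation of -0.10 as a random block and left 1 gene called in AntiPD1 against Placebo.

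With array medians subtracted, Cabozantinib against Placebo reversed for Afp (-0.027) and Igf2bp1 (-0.0055), 1 member (Afp) was called in Combination against Placebo, and 2 genes were called in Combination against Cabozantinib. With dim genes left out, 72 genes were called in Cabozantinib against Placebo, 1 in AntiPD1 against Placebo, 2 in Combination against Cabozantinib and 24 in Combination against AntiPD1. With the mean of all probe sets, these counts were 82, 8 and 4 for the first 3, and Afp in Cabozantinib against Placebo (-0.0031) and Igf2bp3 in Combination against AntiPD1 (-0.041) reversed. With only the 2 groups compared in the fit, 4 genes were called in Cabozantinib against Placebo, 70 in AntiPD1 against Placebo, 22 in Combination against AntiPD1 and 149 in Cabozantinib against AntiPD1.

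With array weights, 71 genes were called in Cabozantinib against Placebo, 1822 in AntiPD1 against Placebo, 3059 in Combination against Placebo, 1441 in Combination against Cabozantinib, 155 in Combination against AntiPD1, 2864 in Cabozantinib against AntiPD1 and 4069 among the 4 groups. There 1 member was called in each of AntiPD1 against Placebo (Igf2bp3), Combination against Placebo (Afp), Cabozantinib against AntiPD1 (Igf2bp3) and the 4-group test (Igf2bp3). Afp in Cabozantinib against Placebo (-0.011), Peg3 in AntiPD1 against Placebo (-0.0014) and Dlk1 in Combination against Cabozantinib (0.012) reversed.

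With the skeletal muscle score as a covariate, the counts were 71 in Cabozantinib against Placebo, 12 in AntiPD1 against Placebo, 1044 in Combination against Placebo, 28 in Combination against Cabozantinib and 65 in Combination against AntiPD1, and Afp in Cabozantinib against Placebo (-0.0054) and Peg3 in AntiPD1 against Placebo (-0.083) reversed. With the hepatocyte score, they were 81, 2, 189 and 0 for the first 4, 616 in Cabozantinib against AntiPD1 and 316 among the 4 groups, and Dlk1 in Combination against Cabozantinib reversed (0.0056). Without the 3 muscle-rich tumours, 37 genes were called in Combination against Cabozantinib, 14 in Combination against AntiPD1, 235 in Cabozantinib against AntiPD1 and 436 among the 4 groups. Reversed there were Afp (-0.018) and Igf2 (-0.0050) in Cabozantinib against Placebo, Peg3 in AntiPD1 against Placebo (-0.019), and Igf2 (-0.14), Igf2bp1 (-0.012) and Igf2bp3 (-0.031) in Combination against AntiPD1. By Spearman's rho 1 pair of members passed, and on deviations from group means 1.

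Leaving out 1 tumour at a time, 0 members were called in every comparison, and genes called ran from 5 to 91 in Cabozantinib against Placebo, 0 to 30 in AntiPD1 against Placebo, 42 (without Combination replicate 2) to 2290 (without Cabozantinib replicate 3) in Combination against Placebo, 0 to 1955 in Combination against Cabozantinib, 13 to 50 in Combination against AntiPD1, 164 (without AntiPD1 replicate 2) to 1916 in Cabozantinib against AntiPD1, 0 to 1 in the interaction and 282 to 2749 among the 4 groups. Member pairs passing ran from 2 to 3. Sign changes occurred in Cabozantinib against Placebo for Afp (-0.018 to 0.030), Igf2 (-0.029 to 0.37) and Igf2bp1 (-0.052 to 0.14), and for Peg3 in AntiPD1 against Placebo (-0.082 to 0.14). They also occurred in Combination against AntiPD1 for Igf2 (-0.059 to 0.28), Igf2bp1 (-0.12 to 0.22), Igf2bp3 (-0.032 to 0.24) and Peg3 (-0.025 to 0.30), and for Dlk1 in Combination against Cabozantinib (-0.049 to 0.065).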

Other observations

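Of 14 measured cell cycle genes, 9 fell in Combination against Placebo and none rose, where 6.64% of all genes passed as lower; the median difference was -0.56. Without Placebo replicate 2, 3 or 4 or Combination replicate 2, each left out alone, 0 of the 14 passed. Of 12 endothelial genes, 11 were lower in Cabozantinib than in AntiPD1, where 2.75% of all genes were, and 7 remained without AntiPD1 replicate 2. In Combination 6 of the 12 were lower than in Placebo, where 1 was higher, and 0 of the 6 remained without Combination replicate 2. Against AntiPD1, 6 of the 12 were lower in Combination, where 0.234% of all genes passed in either direction, with 1 left without AntiPD1 replicate 2 or Combination replicate 2. In Cabozantinib against Placebo 2 were lower, where 0.257% passed, with 0 left without Placebo replicate 3 or 4. Of 6 measured adipocyte genes of 10 listed, 1 rose in Combination against Placebo, and it was lost on leaving out any 1 tumour of the Placebo or Combination group, AntiPD1 replicate 1 or Cabozantinib replicate 5. Keratinocyte genes, of which 1 of 7 measured averaged above the array medians, gave no call in the 6 pairwise comparisons.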
